A study of Mus musculus with 9 samples.

Results

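Hippocampal RNA from MRL/lpr mice treated with mesenchymal stem cells was compared with hippocampal RNA from untreated MRL/lpr mice, with 3 libraries in each group. All 6 libraries labelled MRL/lpr or MRL/lpr+MSC entered the comparison, out of 9 in the series, and 3 MRL/mpj libraries give the level in the control strain. Of 29293 genes with at least 1 count among these 6 libraries, 16758 had enough counts to be tested. Both groups carry the lpr mutation, an insertion in Fas, so the treatment is the difference that the labels name between them. All mice were 6 weeks old according to the labels. The labels name C57BL/6 as the strain of every library, whereas the study works with MRL/MpJ and MRL/MpJ-Faslpr mice, and the study's strains are used here. The source, dose, route and time of the stem cells are not given in the sources used here, and whether the untreated mice received PBS is stated only in the title of the series. Each library came from the hippocampus of a perfused mouse.

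The labels of the groups conflict with a table of values that accompanies the study. In that table, each of the 3 columns headed MRL/lpr had a fixed ratio to 1 of the MRL/lpr+MSC libraries in 100% of genes (tolerance 0.1%, among the first 1999 genes). For any library labelled MRL/lpr, this share was at most 0.657%. The deposited labels were kept, and MRL/lpr+MSC and MRL/lpr mean the libraries labelled so. If the labels were exchanged, every direction below would turn around.

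MRL/lpr mice develop lupus because lymphocytes without functional Fas escape apoptosis and accumulate. Interferon produced in this setting acts through transcription factors on the interferon-stimulated response element (ISRE) and the gamma-activated site (GAS) in the promoters of its target genes. The targets include the guanylate-binding proteins and immunity-related GTPases, which attack the vacuoles of intracellular parasites and bacteria, and the MHC molecules, which present peptides to T cells. In the healthy brain these genes are expressed at low levels. Mesenchymal stem cells are stromal cells that are studied in lupus for their effect on lymphocytes and on inflammatory cytokines.

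The promoters of 3 GTPases are shown because interferon response elements are a feature that most members of this family share. RefSeq promoter windows (GRCm38.p6), which run from 250 bases before to 50 bases after the start of the gene, were found for 10 of the 13 GTPases. The ISRE was searched as GAAA, any 2 bases and GAAA, and the GAS as TTC, any 3 bases and GAA, on both strands, and a match is a description of letters and not a binding site. The ISRE letters were present in 9 of the 10 GTPases (90%), against 3.62% of the 12202 tested genes with a window. The GAS letters were present in 6 of the 10 (60%), against 8.24%. Among the MHC class I genes, 3 of 11 windows (27.3%) held the ISRE letters, and none of the 5 MHC class II windows did. Of 13 type I interferon-induced genes with a window, 8 (61.5%) held the ISRE letters and 3 (23.1%) the GAS letters. The 250 bases upstream of Gbp2 (chr3:142620413-142620662, plus strand), Igtp (chr11:58199306-58199555, plus strand) and Irgm1 (chr11:48871421-48871670, minus strand) are given 5′ to 3′, with the ISRE matches in capitals. The RefSeq starts of Gbp2 and Irgm1 lie inside the gene models of the annotation used for gene coordinates (GENCODE), so that the end of the Gbp2 window with its match and the whole Irgm1 window fall within those models. The match of Gbp2 lies on the opposite strand, and Irgm1 holds 2 matches that share bases.
Gbp2: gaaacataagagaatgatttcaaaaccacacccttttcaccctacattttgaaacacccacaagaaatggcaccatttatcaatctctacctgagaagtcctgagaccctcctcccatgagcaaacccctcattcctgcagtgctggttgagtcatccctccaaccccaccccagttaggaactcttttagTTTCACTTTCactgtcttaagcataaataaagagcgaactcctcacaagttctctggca
Igtp: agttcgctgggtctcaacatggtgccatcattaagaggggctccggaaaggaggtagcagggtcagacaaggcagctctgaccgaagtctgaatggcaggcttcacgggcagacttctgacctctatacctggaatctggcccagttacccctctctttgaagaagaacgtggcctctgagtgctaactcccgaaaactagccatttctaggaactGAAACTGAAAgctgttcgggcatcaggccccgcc
Irgm1: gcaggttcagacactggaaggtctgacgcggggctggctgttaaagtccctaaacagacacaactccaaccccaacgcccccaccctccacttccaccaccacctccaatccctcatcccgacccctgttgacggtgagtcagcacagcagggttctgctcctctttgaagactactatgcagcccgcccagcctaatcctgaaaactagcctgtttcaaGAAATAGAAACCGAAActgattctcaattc

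The libraries did not fall into groups by treatment. The total count was 22438063 to 26912031 in MRL/lpr and 20014975 to 21914100 in MRL/lpr+MSC libraries, and 3 counts, the limit that a count of 0 allows, correspond to 0.105 to 0.156 CPM (counts scaled to library size after TMM normalization). This limit covers counting error only. The spread of log2 differences between libraries (SD over the genes tested) was 0.442 to 0.582 within MRL/lpr, 0.395 to 0.571 within MRL/lpr+MSC and 0.277 to 0.654 between the groups, and the most similar pair of all was MRL/lpr replicate 3 with MRL/lpr+MSC replicate 3. In a principal component analysis, the first component (39.8% of the variance) set MRL/lpr+MSC replicate 1 apart from the other 5 libraries. Fas itself was at 2.27, 1.33 and 1.79 CPM in the MRL/lpr libraries and at 0.988, 1.10 and 1.81 CPM in the MRL/lpr+MSC libraries, and the groups overlapped. In MRL/mpj libraries it was at 2.01, 1.86 and 1.63 CPM, so that the Fas level did not distinguish MRL/lpr from the control strain and does not check the labels. The 4 Y-linked genes examined had no count in any of the 9 libraries, and Xist was present in all.

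No gene was differentially expressed between MRL/lpr+MSC and MRL/lpr mice. Of the 16758 genes, 0 had an adjusted p under 0.05 with a 1.5-fold change in limma voom with Benjamini-Hochberg adjustment, which is 0%, and the smallest adjusted p was 0.921. At an unadjusted p under 0.05, 202 genes were higher (1.21%) and 438 were lower (2.61%) in MRL/lpr+MSC libraries. The latter counts depended on single libraries, since the total of 640 became 298 without MRL/lpr replicate 1, 359 without MRL/lpr+MSC replicate 1 and 1073 without MRL/lpr replicate 3. An exact permutation test of 3 against 3 libraries cannot give a two-sided p below 0.10, so single genes are described by their values and by whether the groups overlap. All 3 MRL/lpr+MSC libraries lay above all 3 MRL/lpr libraries for 662 genes (3.95%) and below them for 1010 genes (6.03%), and the counts for gene lists below are read against these shares. A gene that reached the level set for testing only in the 3 libraries of 1 group is in effect apart through that filter alone. This can raise the shares of lists with low levels, and such genes were not counted. With 1 library left out, when fewer comparisons have to hold, 6.44% to 11.3% of all genes were higher and 8.83% to 13.1% were lower without overlap. The adjusted p was 0.921 or more for every gene named from here on. The labels do not say that replicates are separate cultures or litters, and the spread within a group is that between these 3 libraries.

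The interferon-inducible GTPases had lower levels in MRL/lpr+MSC libraries. All 13 members were tested, all 13 had a negative log2 fold change and the median was -1.71, against -0.002 over all genes tested. For 11 of the 13 (84.6%), every MRL/lpr+MSC library lay below every MRL/lpr library, and 12 had an unadjusted p under 0.05, although none passed the adjusted test. Their summed level was 322, 191 and 97.2 CPM in MRL/lpr replicates 1, 2 and 3, 43.3, 52.7 and 77.6 CPM in the MRL/lpr+MSC replicates and 22.3, 27.8 and 25.5 CPM in the MRL/mpj replicates. The MRL/lpr+MSC libraries lay between the other groups, with MRL/lpr replicate 3 closest to them.

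Gbp2 (ENSMUSG00000028270, chromosome 3, 142620602 to 142638008), a guanylate-binding protein, was at 45.2, 24.6 and 13.8 CPM in MRL/lpr libraries and at 3.90, 6.95 and 8.31 CPM in MRL/lpr+MSC libraries. Its groups did not overlap, and its log2 fold change was -2.02 (SE 0.62, 95% interval -3.51 to -0.53). Igtp (ENSMUSG00000078853, chromosome 11, 58199556 to 58207591), an immunity-related GTPase also known as Irgm3, was at 52.9, 18.8 and 13.1 CPM in MRL/lpr and at 2.55, 5.02 and 11.5 CPM in MRL/lpr+MSC libraries, a log2 fold change of -2.14 (SE 0.83). Irgm1, a regulatory member of the same family, was at 45.1, 23.3 and 15.2 CPM in MRL/lpr and at 9.25, 9.34 and 13.1 CPM in MRL/lpr+MSC libraries (log2 fold change -1.28, SE 0.48). For both genes the lowest untreated and the highest treated library, each the replicate 3, lay close together. The MRL/mpj level was below every MRL/lpr+MSC library for all 3 genes, at 2.71 ± 0.680 CPM for Gbp2, 1.13 ± 0.338 CPM for Igtp and 5.58 ± 0.491 CPM for Irgm1 (SD, n = 3).

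**Figure D1:**
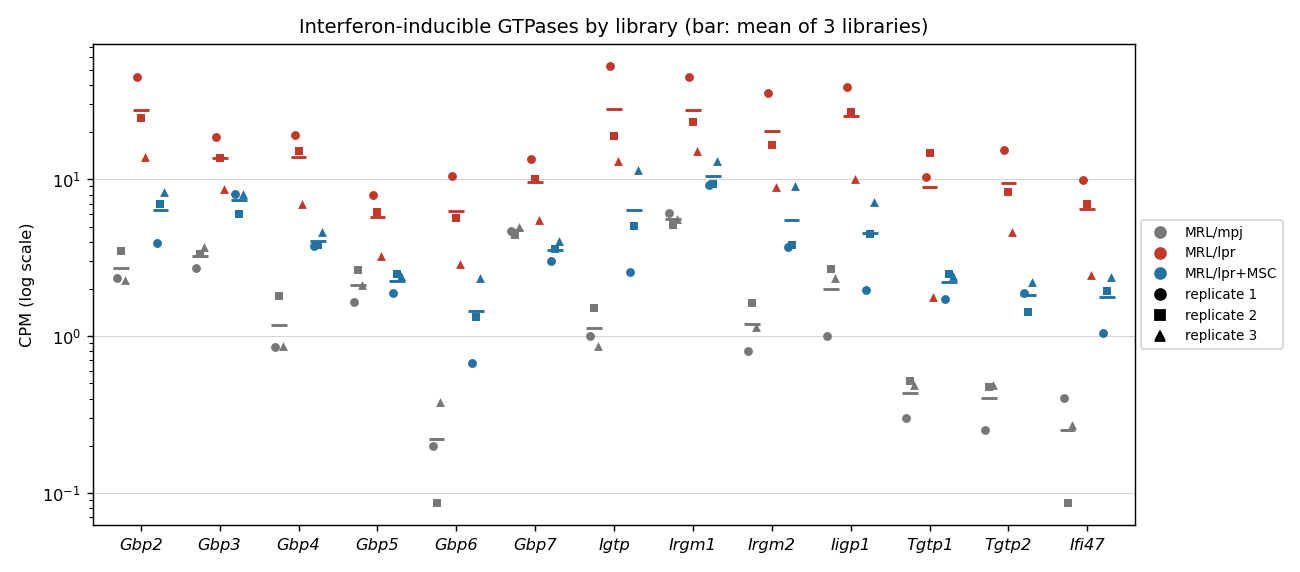
CPM of the 13 interferon-inducible GTPases on a log axis in each library of MRL/mpj (grey), MRL/lpr (red) and MRL/lpr+MSC (blue) mice, with the mean of 3 libraries as a bar. In 11 of the 13 genes all blue points lie below all red points (6.03% of all genes tested). The blue points lie above the grey points in 10 (15.2% of all genes tested).

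The other GTPases ranged from a log2 fold change of -0.85 for Gbp3 to -2.42 for Iigp1. Iigp1, which coats parasite vacuoles, was at 38.5, 27.1 and 10.04 CPM in MRL/lpr and at 1.98, 4.51 and 7.20 CPM in MRL/lpr+MSC libraries. The exceptions to the separation of the groups were Irgm2, where MRL/lpr replicate 3 (8.89 CPM) and MRL/lpr+MSC replicate 3 (9.02 CPM) crossed, and Tgtp1, where MRL/lpr replicate 3 (1.79 CPM) lay within the treated range of 1.72 to 2.49 CPM. Tgtp1 and Tgtp2 are near-identical copies between which the counting may have split reads, so their separate values are uncertain, and the gene models of Igtp and Irgm2 overlap. Compared with the control strain, all treated libraries were higher for 10 of the 13 genes. Over all genes tested, 15.2% were higher and 13.8% lower than MRL/mpj without overlap. Gbp5 and Iigp1 overlapped with MRL/mpj libraries, and for Gbp7 the MRL/lpr+MSC libraries (3.02 to 4.02 CPM) lay below the MRL/mpj libraries (4.44 to 4.99 CPM). Leaving out single libraries gave medians between -2.28 and -1.27.

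MHC class I genes and the machinery that loads them with peptides had a median log2 fold change of -1.45. All 13 tested members of 15 were negative, and for 9 of the 13 (69.2%) every treated library was below every untreated one. B2m, the light chain shared by all class I molecules, was at 400, 209 and 177 CPM in MRL/lpr libraries and at 90.8, 136 and 149 CPM in MRL/lpr+MSC libraries (log2 fold change -0.99, SE 0.33), with 63.6 ± 6.47 CPM in MRL/mpj mice (SD, n = 3). Every library of the treated group lay below the untreated group and above the control strain. Nlrc5, the transactivator of class I genes, was at 15.9, 6.58 and 4.51 CPM in MRL/lpr and at 1.56, 3.08 and 3.67 CPM in MRL/lpr+MSC libraries.

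The immunoproteasome subunits Psmb8 and Psmb9, which trim peptides for class I, had log2 fold changes of -1.66 (SE 0.60) and -1.62 (SE 0.58) without overlap of the groups. Psmb10, the remaining subunit of that proteasome, had -0.04 (SE 0.15), with 26.3 to 33.8 CPM in MRL/lpr and 24.99 to 34.4 CPM in MRL/lpr+MSC libraries. The peptide transporter gene Tap1 was at 27.3, 14.7 and 6.63 CPM in MRL/lpr and at 5.51, 5.84 and 6.89 CPM in MRL/lpr+MSC libraries, so that MRL/lpr replicate 3 lay inside the treated range. The class I heavy chain genes H2-K1 and H2-D1 had log2 fold changes of -1.75 and -1.54, without overlap of the groups. Their reads can be divided among similar copies, and the level of H2-D1 varied between 4.23 and 113 CPM within the MRL/mpj group, so levels of single H2 genes are not compared with the control strain.

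MHC class II genes, which are normally expressed by antigen-presenting cells, had a median log2 fold change of -2.16 over 8 tested members of 9. For 5 of the 8 (62.5%) the groups did not overlap, and all 8 were negative. Cd74, the invariant chain that escorts class II molecules, was at 161, 112 and 46.4 CPM in MRL/lpr libraries and at 2.70, 18.9 and 21.96 CPM in MRL/lpr+MSC libraries (log2 fold change -3.08, SE 0.85, 95% interval -5.13 to -1.03). H2-Aa was at 40.7, 31.7 and 9.65 CPM in MRL/lpr and at 1.14, 5.25 and 4.77 CPM in MRL/lpr+MSC libraries (log2 fold change -2.88, SE 0.98). MRL/lpr+MSC replicate 1 was the lowest for both genes, and its Cd74 level fell within the MRL/mpj range of 1.03 to 3.16 CPM. Ciita, the class II transactivator, overlapped between the groups, with 1.57 CPM in MRL/lpr replicate 3 and 0.988 to 1.68 CPM in the treated libraries. All 8 class II genes were apart when MRL/lpr replicate 3 was left out, when 13.1% of all genes were lower without overlap.

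Genes induced by type I interferon had smaller differences. All 18 tested members of 20 were negative, with a median of -0.62, but in only 3 of the 18 (16.7%) were the groups apart, among them Isg15 and Oasl2. Isg15, a ubiquitin-like modifier, was at 2.59, 2.82 and 1.74 CPM in MRL/lpr and at 1.09, 1.29 and 1.72 CPM in MRL/lpr+MSC libraries. MRL/lpr replicate 3 lay only just above the treated group. Without that library the groups were apart for 17 of the 18 genes, when 13.1% of all genes were lower without overlap. Without MRL/lpr+MSC replicate 3 they were apart for 7 of the 18, against 11.2% of all genes. In 13 of the 18 genes, all MRL/lpr+MSC libraries exceeded all MRL/mpj libraries, against 15.2% of all genes tested.

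**Figure D2:**
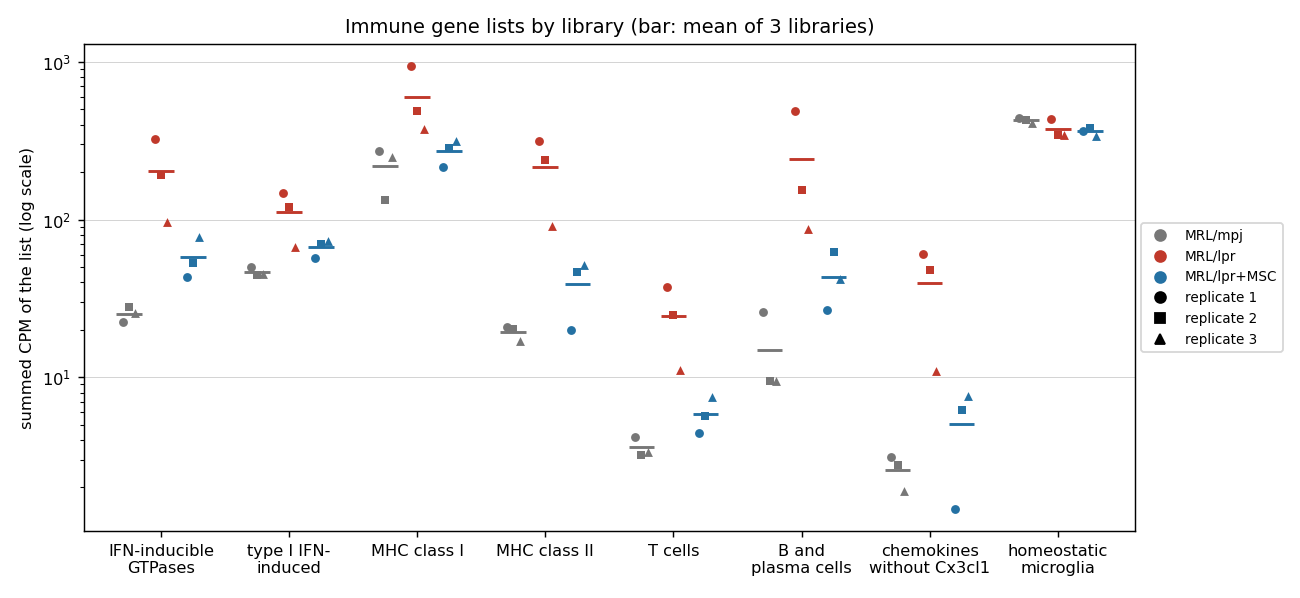
Summed CPM of 8 immune gene lists on a log axis in each library of MRL/mpj (grey), MRL/lpr (red) and MRL/lpr+MSC (blue) mice, with the mean of 3 libraries as a bar. For the GTPases, MHC class II, T cells and B and plasma cells the blue points lie below the red points, whereas for homeostatic microglia they overlap. The chemokine sum leaves out Cx3cl1.

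T cell genes had lower levels in MRL/lpr+MSC libraries, and the CD3 chains were near the limit of counting there. The 12 tested members of 15 were all negative with a median of -2.16, and for 10 of the 12 (83.3%) the groups did not overlap. The median was -1.17 without MRL/lpr replicate 1 and -1.12 for members with at least 1 CPM in all 6 libraries. Cd3e, a chain of the T cell receptor complex, was at 2.38, 1.58 and 0.723 CPM in MRL/lpr libraries and at 0, 0.0920 and 0.221 CPM in MRL/lpr+MSC libraries, against 0 to 0.1004 CPM in MRL/mpj libraries. Cd3d was at 2.31, 1.07 and 0.553 CPM in MRL/lpr and at 0.0520, 0.0920 and 0.0884 CPM in MRL/lpr+MSC libraries. The treated levels of Cd3d are below that of 3 counts, and its fitted log2 fold change of -3.54 (SE 0.78) depends on the small count added before the logarithm. Cd3e and Cd3d reached the level set for testing in no treated library and were tested only through the MRL/lpr libraries. The filter thereby fixed their negative sign and lack of overlap, and both are part of the 83.3%. How many other members of the list passed the filter only in this way was not counted. Summed over the list, the level was 37.3, 24.7 and 11.1 CPM in MRL/lpr, 4.42, 5.66 and 7.51 CPM in MRL/lpr+MSC and 3.24 to 4.17 CPM in MRL/mpj libraries. The coreceptor gene Cd4, which microglia can also express, and Cd8a did overlap, with MRL/lpr+MSC replicate 3 at 1.503 and 0.751 CPM above MRL/lpr replicate 3. In whole tissue, fewer T cells and less RNA per T cell cannot be told apart.

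B cell and plasma cell genes followed a similar course. All 8 tested members of 12 were negative (median -2.24), and in all 8 (100%) the groups did not overlap. How many of the 8 passed the filter for testing only through MRL/lpr libraries, which would fix both outcomes, was not counted. Each scaling tried kept this count at 8, and leaving out a library cannot lower it. Igkc, the constant region of the kappa light chain, was at 344, 95.3 and 52.1 CPM in MRL/lpr libraries and at 11.1, 40.9 and 19.8 CPM in MRL/lpr+MSC libraries (log2 fold change -2.47, SE 0.81). In MRL/mpj libraries it was at 0.388 to 1.61 CPM. Jchain, which joins secreted IgM and IgA, was at 110, 36.9 and 19.01 CPM in MRL/lpr and at 4.58, 11.9 and 9.02 CPM in MRL/lpr+MSC libraries. Pax5 and Ighd, which belong to B cells before they become plasma cells, differed less, with log2 fold changes of -0.55 (SE 0.29) and -0.72 (SE 0.34).

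Among all annotated immunoglobulin segments, 23 of 264 were tested, 22 were negative and the median was -3.49, or -1.49 without the filter and -2.46 with at least 1 CPM in all 6 libraries. In 11 of them (47.8%) the groups did not overlap. This count was 17 without MRL/lpr replicate 3 and 20 without MRL/lpr+MSC replicate 3. The shares of all genes lower without overlap were then 13.1% and 11.2%. How many of the segments apart passed the filter only through MRL/lpr libraries was not counted. Single segments varied strongly between mice of 1 group. Ighg1, a constant region of IgG, was at 196, 27.4 and 30.5 CPM in MRL/lpr libraries and at 0.208, 80.2 and 4.73 CPM in MRL/lpr+MSC libraries, so that treated replicate 2 exceeded 2 of the untreated libraries. Igkv19-93 was at 30.1 CPM in MRL/lpr+MSC replicate 2 and at 1.79 CPM or less in each of the other 5 libraries. The variable segments share sequence, and the counting may have divided reads among them.

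Of the chemokines, 7 of the 11 tested (63.6%) were lower without overlap, and the median was -2.60. Ccl5, which attracts T cells, was at 5.63, 2.22 and 1.28 CPM in MRL/lpr and at 0.156, 0.368 and 1.02 CPM in MRL/lpr+MSC libraries (log2 fold change -2.60, SE 0.91). Cxcl9, an interferon-gamma target, was at 14, 10.99 and 1.06 CPM in MRL/lpr libraries and at 0, 0.322 and 0.707 CPM in MRL/lpr+MSC libraries, and its log2 fold change of -4.86 had an SE of 2.27. MRL/lpr replicate 3 was again nearest to the treated libraries. Cx3cl1, a neuronal chemokine that acts on microglia, was the 1 member higher without overlap, at 454, 445 and 458 CPM against 471, 494 and 465 CPM, and with total count scaling its groups overlapped. Ccl2 had a log2 fold change of 0.10 (SE 0.97). Where only members above 1 CPM in all 6 libraries were kept, the list's median was 0.09.

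**Figure D3:**
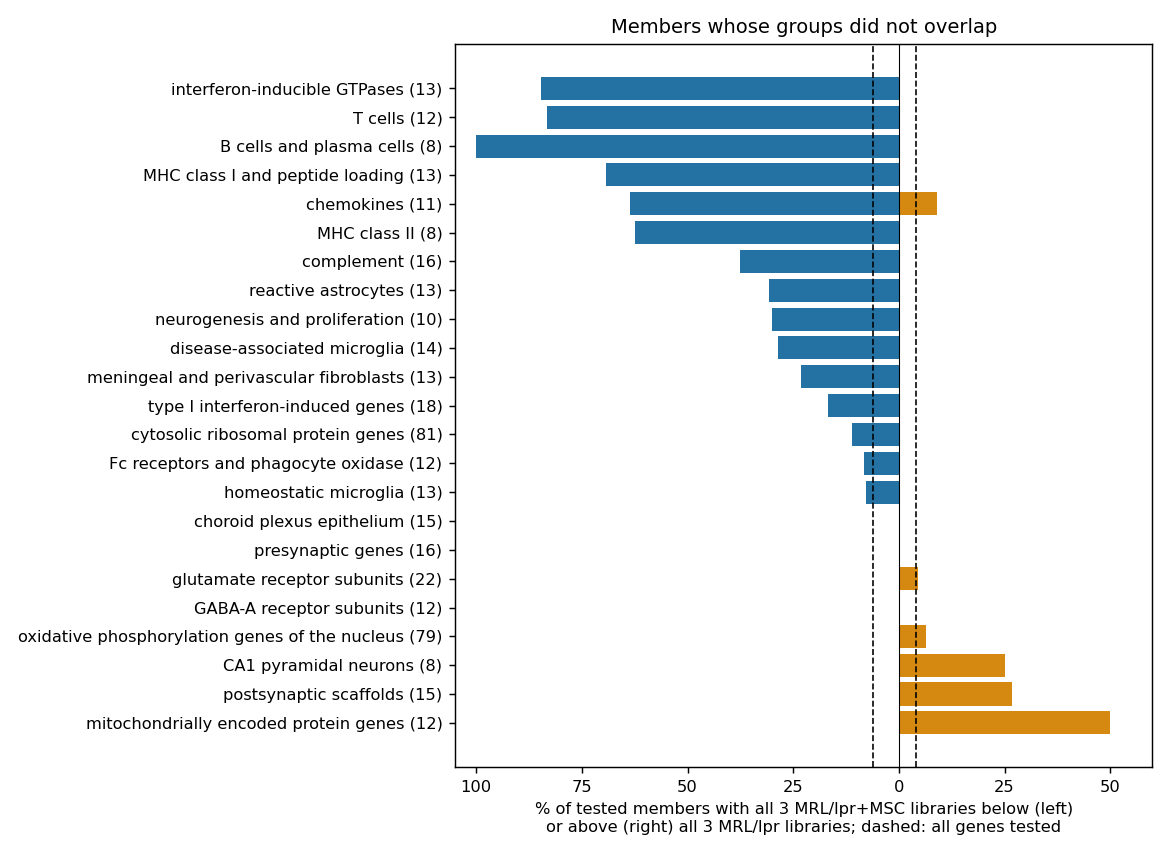
Share of tested members (number in parentheses) for which all 3 MRL/lpr+MSC libraries lay below (blue, left) or above (orange, right) all 3 MRL/lpr libraries, with dashed lines at 6.03% and 3.95%, the shares over all genes tested. The lymphocyte, GTPase, MHC and chemokine lists exceed 60% on the left, and the mitochondrially encoded genes reach 50% on the right. The T cell share includes Cd3e and Cd3d, which passed the filter for testing only through the MRL/lpr libraries. Further members of these lists that passed it only in this way were not counted.

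Complement genes were negative in 16 of 16 tested members of 19, with a median of -0.67, and in 6 of the 16 (37.5%) the groups were apart. The median was -0.26 without MRL/lpr replicate 1. The C1q chains, which tag synapses and debris for microglia, had modest differences. C1qa was at 82.5, 58.4 and 48.4 CPM in MRL/lpr libraries and at 41.9, 50.3 and 45.0 CPM in MRL/lpr+MSC libraries, with an overlap of MRL/lpr replicate 3 and treated replicate 2 (log2 fold change -0.42, SE 0.20). C1qb and C1qc did not overlap, with log2 fold changes of -0.68 (SE 0.25) and -0.66 (SE 0.22). C3, the central component, was at 113, 41.0 and 23.9 CPM in MRL/lpr and at 2.91, 13.3 and 19.2 CPM in MRL/lpr+MSC libraries (log2 fold change -2.34, SE 0.91), and one MRL/mpj library, at 29.0 CPM, exceeded all treated ones. C1s1, the protease that cleaves C4 and C2, was at 9.20, 9.53 and 1.40 CPM in MRL/lpr and at 0.312, 1.24 and 0.928 CPM in MRL/lpr+MSC libraries. Without MRL/lpr replicate 3 the groups were apart for 11 of the 16 complement genes (13.1% of all genes), and without MRL/lpr+MSC replicate 2 for 10 of the 16 (12.4% of all genes).

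Genes of resting microglia showed no such difference. The 13 homeostatic microglia genes had a median of -0.04, and 1 of the 13 (7.69%) was lower without overlap, namely Aif1, which encodes IBA-1, at 11.02, 9.19 and 7.36 CPM against 6.19, 7.23 and 6.94 CPM. The purinergic receptor gene P2ry12 had a log2 fold change of 0.05 (SE 0.15), Tmem119 of -0.05 (SE 0.10) and the fractalkine receptor gene Cx3cr1 of 0.05 (SE 0.12). Tyrobp, the signalling adaptor of Trem2, was at 15.2, 13.4 and 11.2 CPM in MRL/lpr and at 8.42, 9.66 and 9.90 CPM in MRL/lpr+MSC libraries (log2 fold change -0.49, SE 0.16), whereas Trem2 itself had 0.00 (SE 0.18). Of the 14 tested genes of disease-associated microglia, 4 (28.6%) were lower without overlap, among them the phagocytic receptor gene Clec7a and the integrin gene Itgax, with log2 fold changes of -1.53 (SE 0.58) and -3.53 (SE 1.23). The lipid carrier gene Apoe and the lysosomal protease genes Ctsb and Ctsd had log2 fold changes of -0.11 (SE 0.14), -0.01 (SE 0.07) and -0.06 (SE 0.16). The Fc receptors and the phagocyte oxidase had a median of -0.35 with 1 of 12 members apart (8.33%), Ncf4. Without MRL/lpr replicate 3 the number apart was 8 (13.1% of all genes), and without MRL/lpr+MSC replicate 2 it was 6 (12.4% of all genes).

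Of the inflammatory cytokines, 7 of 14 were tested, with a median of -0.07 that was -0.54 without the filter and between -0.63 (without MRL/lpr replicate 3) and -0.13 with each library left out. Ltb, a lymphotoxin chain of lymphocytes, was the 1 member apart (14.3%), at 5.63, 4.36 and 1.53 CPM in MRL/lpr and at 0.416, 0.920 and 0.928 CPM in MRL/lpr+MSC libraries. Il18 had a log2 fold change of 0.07 (SE 0.14). Tnf did not pass the filter, and its level was at most 0.315 CPM in any library. Among 11 tested regulators of immunity, Socs1, an inhibitor of interferon signalling, and Cd274, which encodes PD-L1, were lower without overlap, with log2 fold changes of -1.53 (SE 0.45) and -1.24 (SE 0.47). The number apart in that list was 5 without MRL/lpr replicate 3 and 4 without MRL/lpr replicate 2 or MRL/lpr+MSC replicate 1 or 2. In these settings, in that order, 13.1%, 11.8%, 9.64% and 12.4% of all genes were lower without overlap. The alternative activation marker Mrc1 was at 9.48, 10.2 and 6.42 CPM in MRL/lpr and at 3.02, 8.38 and 4.86 CPM in MRL/lpr+MSC libraries, which overlapped.

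Reactive astrocyte genes had a median of -0.50, with 4 of 13 members apart (30.8%). These were Cp, the copper-binding ceruloplasmin (log2 fold change -0.99, SE 0.30), Aspg, Osmr and Timp1. Leaving out MRL/lpr replicate 3 set 8 of the 13 apart, when 13.1% of all genes were lower without overlap. Gfap, the intermediate filament used to identify reactive astrocytes, overlapped, at 750, 494 and 468 CPM against 464, 522 and 427 CPM (log2 fold change -0.23, SE 0.19). General astrocyte genes had a median of 0.05.

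Markers of neighbouring tissue varied between the libraries. Genes of the choroid plexus, the epithelium that secretes cerebrospinal fluid, summed to 1826, 13730 and 313 CPM in MRL/lpr replicates 1, 2 and 3 and to 245, 7023 and 1020 CPM in the MRL/lpr+MSC replicates, so that both replicates 2 were high. Of its 15 markers, 15 were tested and 0 were apart, and Ttr, the transthyretin gene that defines this epithelium, ranged from 51.2 to 8807 CPM over the 6 libraries. Meningeal and perivascular fibroblast genes summed to 410, 954 and 247 CPM in MRL/lpr and to 124, 589 and 218 CPM in MRL/lpr+MSC libraries, with a median of -1.01 and 3 of 13 members lower without overlap (23.1%), Col3a1, Slc6a13 and Slc22a6. The number apart was 8 without MRL/lpr replicate 3 (13.1% of all genes) and 10 without MRL/lpr+MSC replicate 2 (12.4% of all genes). The 10 thalamic neuron genes summed to 464, 219 and 644 CPM in MRL/lpr and to 94.0, 366 and 575 CPM in MRL/lpr+MSC libraries, with replicate 3 highest in both groups. No marker of these 3 lists was at 0 in any library, and the part of neighbouring tissue in the immune differences was not tested. Both replicates 2 were also left out, a choice made after these levels were seen. Counts of members apart cannot fall when libraries are left out. The groups were apart for 11 of the 13 GTPases, 10 of the 12 T cell genes and 8 of the 8 B cell and plasma cell genes. These counts are the same as with all 6 libraries, so they say nothing about neighbouring tissue. The fibroblast genes apart then numbered 10 of 13 (76.9%), when 19.5% of all genes were lower without overlap.

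Genes of blood cells depended on MRL/lpr+MSC replicate 2. The 5 erythrocyte genes summed to 52.7, 59.8 and 103 CPM in MRL/lpr and to 27.8, 148 and 36.3 CPM in MRL/lpr+MSC libraries, an overlap in both directions. The 8 neutrophil genes summed to 2.39 to 2.80 CPM in MRL/lpr libraries and to 0.624, 30.4 and 2.87 CPM in MRL/lpr+MSC libraries, with replicate 2 above all others. Without this library, 3 of 3 tested erythrocyte genes (100%) and 1 of 3 tested neutrophil genes were lower without overlap, against 12.4% of all genes. The neutrophil median of 0.60 was then -0.85, and it was 1.61 without MRL/lpr+MSC replicate 1. The part of blood in the immune differences was not tested.

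**Figure D4:**
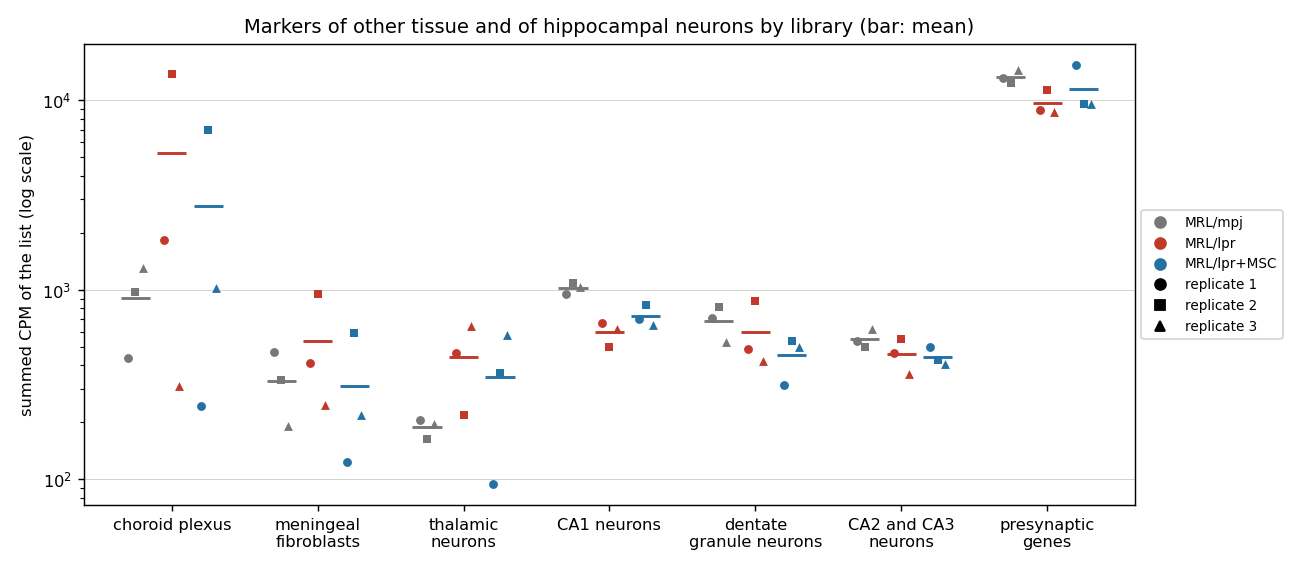
Summed CPM of marker genes of other tissue and of hippocampal neurons on a log axis in each library of MRL/mpj (grey), MRL/lpr (red) and MRL/lpr+MSC (blue) mice, with the mean as a bar. The choroid plexus sum is 13730 and 7023 CPM in replicate 2 of MRL/lpr and MRL/lpr+MSC and at most 1826 CPM in the other 4 of these libraries.

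Neuronal genes differed in direction between cell types, by small amounts. The defining markers of the hippocampus were present in all libraries, and dentate granule neuron genes summed to 316 to 878 CPM over the 6 libraries. The 8 genes of CA1 pyramidal neurons had a median log2 fold change of 0.29, and 2 of the 8 (25%) were higher without overlap. Mpped1 was at 93.8, 54.3 and 85.6 CPM in MRL/lpr and at 180, 144 and 96.6 CPM in MRL/lpr+MSC libraries (log2 fold change 0.85, SE 0.29), and Fibcd1 was at 68.3, 57.4 and 73.0 CPM against 81.1, 91.9 and 75.04 CPM (log2 fold change 0.33, SE 0.12). In both genes 1 treated library lay just above the untreated range. Without MRL/lpr+MSC replicate 3, 4 of the 8 were apart, when 8.37% of all genes were higher without overlap. Genes of dentate granule neurons were negative in 8 of 8, with a median of -0.29 that became 0.06 without MRL/lpr replicate 2, and those of CA2 and CA3 neurons had a median of 0.03, with 0 members apart in either list. Neocortical neuron genes, which mark another tissue, were positive in 7 of 8 with the same median as the CA1 genes (0.29) and 1 of 8 apart (12.5%). They summed to 154, 155 and 132 CPM in MRL/lpr and to 236, 181 and 137 CPM in MRL/lpr+MSC libraries, and 5 of the 8 were apart without MRL/lpr+MSC replicate 3. Their part in the CA1 and synaptic values was not tested.

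Postsynaptic scaffolds, which anchor receptors at the synapse, had a median of 0.16 with 4 of 15 members higher without overlap (26.7%), against 3.95% of all genes. Shank2 was at 160, 161 and 154 CPM in MRL/lpr and at 235, 187 and 175 CPM in MRL/lpr+MSC libraries (log2 fold change 0.33, SE 0.12). Dlg4, which encodes PSD-95, was at 706, 743 and 737 CPM in MRL/lpr and at 823, 792 and 782 CPM in MRL/lpr+MSC libraries (log2 fold change 0.14, SE 0.08). The others were Shank3 and Gphn, the inhibitory scaffold, and in all 4 genes the untreated libraries were tightly grouped. Without MRL/lpr replicate 2, 7 of the 15 were apart, when 10.1% of all genes were higher without overlap. Camk2a, the most abundant member, overlapped at 3981, 4920 and 3457 CPM against 4808, 4558 and 4005 CPM.

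Presynaptic genes had positive log2 fold changes in 16 of 16 members (median 0.26), but 0 were apart. The summed level was highest in MRL/lpr+MSC replicate 1, at 15390 CPM against 9572 and 9549 CPM in the other treated libraries and 8653 to 11310 CPM in MRL/lpr libraries. Without that library the median was 0.03 and 0 were apart, whereas 6 were apart (37.5%) without MRL/lpr replicate 2, 5 without MRL/lpr+MSC replicate 2 and 3 without MRL/lpr replicate 3. With both replicates 2 left out, 10 of 16 were apart (62.5%), against 16.5% of all genes. The 12 GABA-A receptor subunits were all positive (median 0.15, 0 apart, 3 apart without MRL/lpr replicate 2 or 3), and of the 22 glutamate receptor subunits 1 was apart (4.55%). This was Grin1, the obligatory NMDA receptor subunit, at 205, 227 and 214 CPM in MRL/lpr and at 254, 243 and 232 CPM in MRL/lpr+MSC libraries (log2 fold change 0.18, SE 0.08), compared with 311 to 350 CPM in MRL/mpj libraries. Among interneuron genes, Pvalb, a calcium buffer of fast-spiking cells, was at 22.9, 23.3 and 23.8 CPM in MRL/lpr and at 38.6, 28.6 and 26.1 CPM in MRL/lpr+MSC libraries. Vip was the other of the 2 members apart (16.7% of 12). The number apart was 5 without MRL/lpr replicate 3, and for glutamate receptors it was 5 without MRL/lpr replicate 2 or 3 and 4 without MRL/lpr+MSC replicate 3. Among all genes, the share higher without overlap was 10.1% and 11.3% without MRL/lpr replicates 2 and 3, respectively. It was 9.3% and 8.37% without MRL/lpr+MSC replicates 2 and 3.

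**Figure D5:**
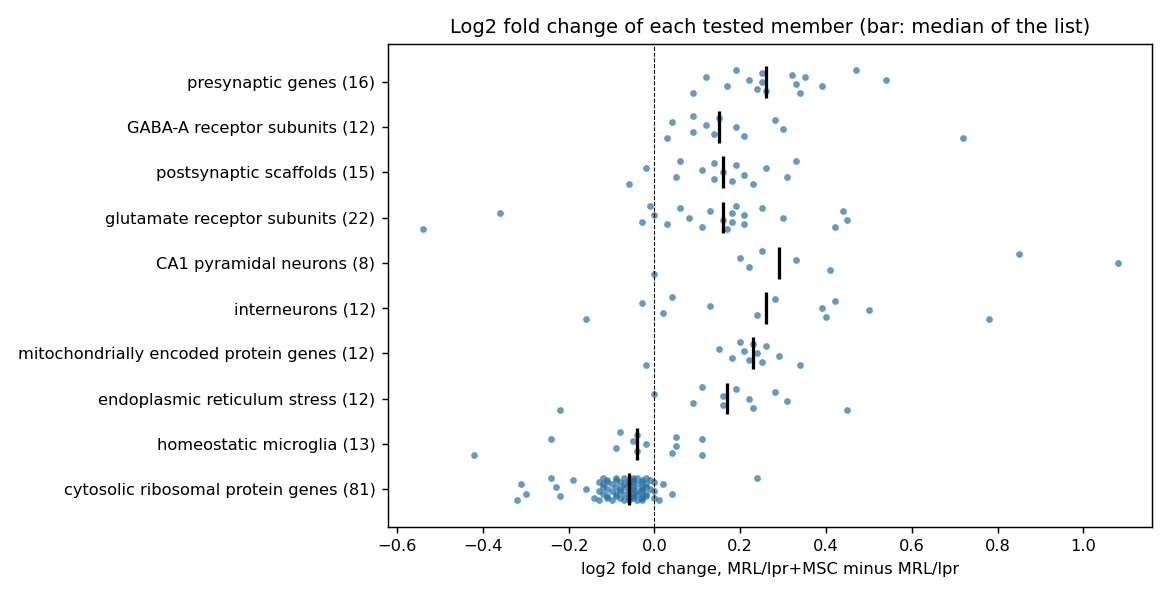
Log2 fold change (MRL/lpr+MSC minus MRL/lpr) of each tested member of 10 gene lists, 1 point per gene, with the median of the list as a bar and the number tested in parentheses. The synaptic, receptor and mitochondrially encoded lists have medians of 0.15 to 0.26, and the CA1 list has 0.29. Homeostatic microglia and ribosomal protein genes have medians of -0.04 and -0.06.

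Transcripts encoded by the mitochondrial genome had positive log2 fold changes in 11 of 12 tested genes, with a median of 0.23 and with 6 of 12 apart (50%). mt-Nd5, a subunit of complex I, was at 2625, 2543 and 2659 CPM in MRL/lpr and at 3322, 3357 and 3176 CPM in MRL/lpr+MSC libraries (log2 fold change 0.34, SE 0.09). mt-Co1, a subunit of cytochrome oxidase, was at 13040, 12570 and 13730 CPM against 16010, 15280 and 15030 CPM. The untreated libraries lay below the treated ones in both genes, and MRL/mpj libraries had 2992 to 4138 CPM of mt-Nd5. The number apart was 5 with total count scaling, 7 with median-of-ratios scaling and 11 without MRL/lpr replicate 3. The shares of all genes higher without overlap were then 2.09%, 4.46% and 11.3%. The oxidative phosphorylation genes of the nucleus had a median of 0.03, with 5 of 79 apart (6.33%), and the cytosolic ribosomal protein genes a median of -0.06, with 9 of 81 lower without overlap (11.1%). Without single libraries these counts reached 18 of 79 (MRL/lpr replicate 3) and 30 of 81 (MRL/lpr+MSC replicate 3). Of all genes, 11.3% were higher in the former setting and 11.2% lower in the latter without overlap. The share of counts on mitochondrial protein genes was 3.17% to 3.64% in MRL/lpr and 3.78% to 3.88% in MRL/lpr+MSC libraries.

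Stress responses differed little. The 9 heat shock genes had a median of 0.12, and the near-identical pair Hspa1b and Hspa1a were the 2 members apart (22.2%). Leaving out MRL/lpr replicate 3 gave 6 apart, when 11.3% of all genes were higher without overlap. Hspa1b was at 12.7, 10.5 and 11.4 CPM in MRL/lpr and at 16.4, 16.6 and 16.4 CPM in MRL/lpr+MSC libraries (log2 fold change 0.52, SE 0.11), and the MRL/mpj libraries were higher still, at 17.8 to 29.7 CPM. Reads may be divided between the copies, and Hspa1a was lower in MRL/mpj than in treated libraries. Of the 12 endoplasmic reticulum stress genes, 11 were positive (median 0.17), and Xbp1 was the 1 apart (8.33%). Hspa5, the chaperone BiP, was at 351, 363 and 338 CPM in MRL/lpr and at 352, 500 and 459 CPM in MRL/lpr+MSC libraries, so replicate 1 of the treated group lay with the untreated ones. The number apart in this list was 0 with total count scaling, 4 with median-of-ratios scaling, 4 without MRL/lpr replicate 2 and 8 without MRL/lpr+MSC replicate 1. In that order, 2.09%, 4.46%, 10.1% and 6.47% of all genes were higher without overlap.

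Genes of neurogenesis and proliferation had a median of -0.52, with 3 of 10 lower without overlap (30%). Sox11, a transcription factor of newborn neurons, was at 34.96, 34.5 and 46.7 CPM in MRL/lpr and at 22.9, 25.8 and 27.7 CPM in MRL/lpr+MSC libraries (log2 fold change -0.58, SE 0.15). Mki67 and Top2a, which mark dividing cells of any type, were the others. The number apart was 5 without MRL/lpr replicate 2 (11.8% of all genes) and 5 without MRL/lpr+MSC replicate 2 (12.4% of all genes). Dcx, the marker of migrating neuroblasts, had 0.01 (SE 0.27).

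Genes found on the surface of mesenchymal stem cells were not higher in the treated libraries. The 12 members had a median of -0.22, 0 were higher without overlap and 1 was lower (8.33%), Ly6a, which encodes Sca-1. The number lower was 6 without MRL/lpr replicate 3 (13.1% of all genes) and 4 without MRL/lpr+MSC replicate 2 (12.4% of all genes). Ly6a was at 34.9, 30.1 and 23.9 CPM in MRL/lpr and at 22.1, 21.4 and 20.9 CPM in MRL/lpr+MSC libraries, and it is also an interferon-induced gene of endothelial cells. Nt5e (CD73) and Eng (CD105) had log2 fold changes of -0.48 (SE 0.24) and 0.02 (SE 0.08). These genes are expressed by brain vessels and stroma as well, and how many donor cells they could reveal was not tested. Of 20 tested growth and trophic factors, which stem cells may secrete or induce, 0 were apart, and the median was -0.08. Bdnf had a log2 fold change of 0.09 (SE 0.24), Vegfa of -0.24 (SE 0.13), Igf1 of 0.02 (SE 0.23) and Hgf of 0.60 (SE 0.51).

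Genes that the study names in its text around the sequencing were examined as a group of 19, of which 18 were tested. The group includes C3, for which the study reports no increase in protein. It also includes Nr4a2 and Nr4a3, which the study names as members of the Nr4a1 family. Many further genes of its pathway table are not in the group. Their median was -0.15, or 0.05 with at least 1 CPM in all 6 libraries and -0.34 without the filter. C1s1 and C3 were lower without overlap (11.1%, against 6.03% of all genes), and Grin1 was higher (5.56%, against 3.95%). Without MRL/lpr replicate 3, 7 were lower, without MRL/lpr+MSC replicate 2, 6 were lower, and without MRL/lpr replicate 2, 4 were higher. The matching shares of all genes were 13.1%, 12.4% and 10.1%. Nr4a1, the orphan nuclear receptor, was at 42.2, 32.4 and 50.2 CPM in MRL/lpr and at 38.8, 59.3 and 52.5 CPM in MRL/lpr+MSC libraries (log2 fold change 0.29, SE 0.21, 95% interval -0.23 to 0.80), which overlapped. Nr4a2 was at 25.3, 22.1 and 20.5 CPM in MRL/lpr and at 71.1, 41.7 and 21.5 CPM in MRL/lpr+MSC libraries, so that 2 of the 3 treated libraries were high (log2 fold change 0.81, SE 0.43). Nr4a3 had 0.44 (SE 0.32), and Mef2a, Mef2c and Mef2d had 0.23 (SE 0.15), 0.07 (SE 0.18) and 0.07 (SE 0.12). Of the remaining genes, Itga2, an integrin chain, had -1.14 (SE 0.45), Tlr2 -0.84 (SE 0.52), Thbs1 -0.58 (SE 0.49), Fcgr2b -0.37 (SE 0.34), Cfp -0.35 (SE 0.22) and Creb3l3 0.26 (SE 0.54), all with overlapping groups. C6 was not tested.

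Since no gene passed the adjusted test, the 10 genes in each direction with the smallest unadjusted p were examined, among those whose groups were apart and whose mean reached 1 CPM. Among those with lower levels in MRL/lpr+MSC libraries, Rbp4, a retinol carrier, was at 9.06, 8.81 and 8.97 CPM in MRL/lpr and at 4.47, 5.15 and 4.38 CPM in MRL/lpr+MSC libraries (log2 fold change -0.93, SE 0.13). Gjb2, a connexin of the meninges, was at 13.2, 13.8 and 14.2 CPM against 4.52, 7.36 and 5.83 CPM (log2 fold change -1.21, SE 0.17). The untreated libraries hardly varied in either gene, and the MRL/mpj libraries spread from 6.25 to 16.6 CPM for Rbp4 and from 7.05 to 14.3 CPM for Gjb2. Lcp2, an adaptor of T cell receptor signalling, and Ifitm1, an interferon-induced membrane protein, had log2 fold changes of -1.17 (SE 0.21) and -1.08 (SE 0.20). Mgl2, a lectin of macrophages and dendritic cells, had -1.29 (SE 0.26), Bambi, a TGF-beta pseudoreceptor, -0.78 (SE 0.16), the antisense transcript 9630028B13Rik -1.12 (SE 0.22), Cc2d2a -0.39 (SE 0.08) and Fam13a -0.38 (SE 0.08). The sources do not say if strand was used in counting, so reads of the antisense transcript cannot be told from those of its partner.

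In the other direction, Ccn2, a matricellular protein also called CTGF, was at 2.73, 5.43 and 2.72 CPM in MRL/lpr and at 10.1, 9.07 and 7.69 CPM in MRL/lpr+MSC libraries (log2 fold change 1.39, SE 0.28). Its MRL/mpj libraries ranged from 4.70 to 13.2 CPM and overlapped with the treated ones. Edn1, the vasoconstrictor endothelin, was at 3.53, 3.51 and 3.36 CPM in MRL/lpr and at 5.04, 5.34 and 6.14 CPM in MRL/lpr+MSC libraries (log2 fold change 0.67, SE 0.15). Crhr1, the receptor for corticotropin-releasing hormone, had 0.66 (SE 0.18), Coro6, an actin-binding coronin, 0.83 (SE 0.22), and Cox6a2, a cytochrome oxidase subunit, 1.07 (SE 0.22). Zdhhc22, a palmitoyltransferase, had 1.11 (SE 0.28), Sowahb 1.19 (SE 0.34) and the unclassified transcript Gm37310 0.79 (SE 0.21). The genes mt-Nd5 and Hspa1b, given above, also belong to this set.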

How the data were processed

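Hippocampal poly(A) RNA of 9 mice (3 libraries each from MRL/mpj controls, from MRL/lpr mice and from MRL/lpr+MSC mice) was sequenced. The authors deposited a matrix of read counts per gene and tables of FPKM (counts scaled to gene length and depth); the submitters' processing notes name TopHat2 and GRCm38, and the study's methods name STAR, HTSeq and DESeq2. The FPKM tables followed their own libraries and were not tested. The sources do not say if strand was used in counting.

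From the counts, genes with at least 10 counts in a library of median size in at least 3 libraries and a total of 15 were kept. Counts were scaled by TMM and fitted with limma voom (limma 3.58.1, R 4.3.3, robust empirical Bayes) on the 6 MRL/lpr libraries. A call needed a Benjamini-Hochberg adjusted p under 0.05 and a 1.5-fold change. CPM uses TMM over all 9 libraries. Because the separator of the matrix kept its unit from being registered as counts, no negative binomial count model was run. The fit was also run on simulated counts with a fixed dispersion and large changes in well-counted genes only. That run does not show what the fit can detect at the spread of these libraries. Intervals are 95% intervals of the fit.

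Genes named were the 10 per direction described in the report, those the study names, and members of each list; further list members were named after their values were seen. Some genes that this rule names are not reported here. Members and lists were chosen with earlier results of these data known. Alternatives covered scaling, filters, weights, the replicate block, GC content and length, and libraries left out. Promoters come from RefSeq (GRCm38.p6).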

Additional observations from a re-analysis of the deposited data

How the results depend on the processing

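No gene was called under any of the 19 alternatives. Genes at an unadjusted p under 0.05 numbered 640, 751 with total count scaling, 1299 without a filter, 482 with at least 1 CPM in all 6 libraries, 94 against a 1.5-fold change, 1050 with library quality weights and 298 to 1073 with each library left out. Leaving out both replicates 2, chosen after seeing the data, gave 316. Correlations of deviations between libraries of the same replicate number were -0.206, 0.252 and 0.41 for replicates 1, 2 and 3. Those between different numbers ran from -0.44 to 0.241. The value for replicates 3 lay above this range, that for replicates 2 lay just above its top, and that for replicates 1 lay within it. Deviations are taken from the mean of each group, so these values constrain each other. Sharing by replicate number was not tested. The replicate block gave 657 genes and 0 calls. Total count scaling left 350 genes higher and 1485 lower without overlap, and 34.6% of log2 fold changes were positive (median -0.066), against 63.4% (median 0.066) after correction for GC content and length and 49.6% in the report. Cx3cr1 (0.05) turned to -0.02 with total count scaling, -0.04 with quality weights, -0.08 without both replicates 2, and ranged from -0.03 to 0.14 with each library left out. Creb3l3 (0.26) was -0.18 with quality weights and -0.13 to 0.52 with each library left out. Mef2c (0.07) ranged from -0.08 to 0.26 likewise, and Nr4a1 (0.29) was -0.02 without both replicates 2. With at least 1 CPM in all 6 libraries, the chemokine median (-2.60) was 0.09 and that of the genes the study names (-0.15) was 0.05. The causes were not tested.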
